A study of Mus musculus with 45 samples.

Results

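The genes examined here encode the Roquin, Regnase and ZFP36 RNA-binding proteins, 7 of the 55450 genes in the deposited count table. They were taken by symbol and comprise *Rc3h1* (Roquin-1), *Rc3h2* (Roquin-2), *Zc3h12a* (Regnase-1), *Zc3h12d* (Regnase-4), *Zfp36* (tristetraprolin), *Zfp36l1* and *Zfp36l2*. The study sorted lymphocytes from popliteal lymph nodes draining an immunized hind footpad and sequenced their mRNA, to ask what the loss of the sphingosine-1-phosphate receptor S1PR4 changes in a germinal center (GC) reaction. In all, 45 samples fell into 8 groups, made of 4 populations from WT and S1PR4-deficient (S1PR4-/-, KO) mice. Tfh (PD1+CXCR5+) and non-Tfh (PD1-CXCR5-) CD4+ T cells came from day 6, with 6 WT and 6 KO samples each. GC B (GL7+Fas+) and non-GC B (GL7-Fas-) B220+ cells came from day 9, with 6 WT and 6 KO samples of GC B cells but 5 WT and 4 KO samples of non-GC B cells.

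KO animals carried the S1pr4tm1Dgen allele in every cell of the body and had been crossed to C57/BL6 at least 10 times, and the WT animals were littermates. Both sexes were used, at 8 to 12 weeks of age, and every mouse of every group received 20 µL of an IFA emulsion holding 50 µg OVA and 5 µg LPS, so no group was naive. The deletion was therefore not limited to the sorted lymphocytes. T cells and B cells differed in the day of collection, so that lineage and day cannot be told apart. The methods describe sorting from 6 mice of each genotype, but the labels tie no sample to an animal, and the p-values below measure the spread between these samples.

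These proteins shorten the life of mRNAs. Roquin proteins bind small hairpins in the 3' untranslated region (3' UTR) and recruit the CCR4-NOT deadenylase, Regnase-1 is an endoribonuclease that cuts hairpins of the same kind on translated mRNAs, and ZFP36 family proteins bind AU-rich elements and likewise call in deadenylation. In T cells, Roquin loss is known for uncontrolled Tfh cells through targets such as *Icos*, and MALT1 cleaves Roquin and Regnase-1 after antigen receptor signaling. Zfp36l1 and Zfp36l2 are known in B cells for restraining the cell cycle during development.

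Several of these genes carry, in their own mRNAs, the letters that the proteins read. They are shown because the regulators and their targets are described side by side below. A hairpin was searched as 5 base pairs closed by a C and a G around a loop of 3 bases (pyrimidine, purine, pyrimidine). The AU-rich heptamer TATTTAT was searched on the sense strand, and overlapping matches were counted. Both searches covered the 3' UTR of the principal transcript of each protein-coding gene (GENCODE M21, mm10). The hairpin letters occurred in 978 of 20463 genes (4.78%) and TATTTAT in 5397 (26.4%). Of the 7 decay genes, *Rc3h1*, *Rc3h2* and *Zc3h12a* held 1 hairpin each, against 17.9%, 16.2% and 3.79% of genes with a 3' UTR of like length. In *Rc3h1* and *Rc3h2* all 13 hairpin letters were the same. Windows of 30 bases follow, with the hairpin letters in capitals:
Rc3h1, chr1:160971653-160971682, plus strand: agccaataACTTCTGTGAAGTtgccttttc
Rc3h2, chr2:37373801-37373830, minus strand: tttaattaACTTCTGTGAAGTtgtttactc
Zc3h12a, chr4:125118879-125118908, minus strand: gctagttaGGCACCATGTGCCtgctctctg
Icos, chr1:60999479-60999508, plus strand: agaacaaaATTTCTGTGAAATaaaatctgg
Nfkbid, chr7:30428395-30428424, plus strand: tctaggtgATTTCTGTGAAATcgagcccac
Nfkbiz, chr16:55812606-55812635, minus strand: tgtaagttGTTTCTATGAAACaaacccatt
Tnf, chr17:35199577-35199606, minus strand: cagacatgTTTTCTGTGAAAAcggagctga

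*Zfp36*, *Zfp36l1* and *Zfp36l2* each held 3 copies of TATTTAT, a motif found in 20.2%, 39.1% and 38.8% of genes with a 3' UTR of like length. *Rc3h1* held 2 copies and *Rc3h2* 3, where 80.1% and 67.9% of genes of like length held it, and neither Regnase gene held one. A letter match is a description and not a measured binding site. Windows of 30 bases follow with the heptamers in capitals, and *Tnf* and *Pim1* are shown as targets whose copies overlap:
Zfp36, chr7:28376965-28376994, minus strand: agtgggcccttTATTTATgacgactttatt
Zfp36l1, chr12:80108421-80108450, minus strand: ttatcaaaacgTATTTATtgccaaactatg
Zfp36l2, chr17:84184913-84184942, minus strand: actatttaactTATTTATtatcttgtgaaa
Tnf, chr17:35199677-35199706, minus strand: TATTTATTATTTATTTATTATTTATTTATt
Pim1, chr17:29495685-29495714, plus strand: aagttttaatgTATTTATTTATTTATTTAT

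Libraries held between 26299429 and 45548215 expected counts, and each decay gene had at least 188 in every sample. Levels are counts scaled to library size (CPM) with TMM factors over all samples. *S1pr4* had 505 to 6305 counts in the 23 WT samples and 0 to 40 in the 22 KO samples. T cell markers matched the sorted lineage: the 12 T cell markers summed to between 9297 and 13044 CPM in the T cell samples and to at most 203 CPM in the B cell samples. Samples of sorted cells still held RNA of other cells. The 12 B cell markers summed to 157-464 CPM in Tfh samples and 59.0-104 CPM in non-Tfh samples, and the 8 plasma cell markers to 2036-17860 CPM in GC B samples and 447-767 CPM in non-GC B samples.

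Per length, the ZFP36 family made up most of the mRNA of this set. Dividing each mean CPM by the length of the principal transcript (2755 bases for *Zc3h12a* to 11006 for *Rc3h1*), *Zfp36*, *Zfp36l1* and *Zfp36l2* together held between 73.4% (WT GC B) and 87.9% (WT non-GC B) of the summed level per kb of the 7 genes. By this length *Zfp36* ranked first in 7 of the 8 groups, with 36.2 CPM per kb in WT GC B and 99.2 in WT non-GC B cells, and *Zfp36l2* ranked first in WT non-Tfh cells (78.6 CPM per kb). Roquin mRNAs were at the bottom in every group, *Rc3h1* at 1.92-2.26 and *Rc3h2* at 1.42-3.70 CPM per kb. With the union of all exons as length, which for *Rc3h2* holds retained introns and comes to 19.6 kb, *Rc3h2* lay at 0.635-1.66 CPM per kb. The order at the top also changed with that length. *Zfp36l2* then exceeded *Zfp36* in WT Tfh (47.4 against 39.0 CPM per kb) and KO Tfh cells (41.2 against 39.2). It also did so in KO non-Tfh (68.9 against 56.2) and WT non-GC B cells (82.5 against 79.8). *Zfp36l1* was first in WT GC B cells (29.4 against 29.1 for *Zfp36*), and *Zfp36* stayed first in KO GC B and KO non-GC B cells.

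*Rc3h1* did not follow the populations (chromosome 1, 160906418-160974978, plus strand). Its 45 values ran from 16.6 to 30.2 CPM, and its group means from 21.2 ± 2.62 CPM (SD, n = 6) in KO Tfh to 24.9 ± 3.46 CPM in WT GC B cells, a ratio of 1.17. All 8 groups overlapped. No *Rc3h1* contrast passed the test, and the largest difference was that of KO against WT non-GC B cells (log2 fold change -0.20, 95% interval -0.50 to 0.11).

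*Rc3h2*, which encodes the paralog that overlaps Roquin-1 in function, was lower in both GC populations (chromosome 2, 37370069-37422903, minus strand). WT Tfh samples held 10.5, 13.4 and 18.1 CPM (lowest, median, highest) and WT non-Tfh samples 17.9, 24.7 and 34.4 CPM. WT GC B samples held 14.3, 17.4 and 19.5 CPM, and the 5 WT non-GC B samples 30.7, 41.8, 32.1, 27.1 and 31.1 CPM. The 2 T cell groups met only at their edges and the B cell groups did not overlap. *Rc3h2* fell by 0.90 (SE 0.17) on the log2 scale in Tfh cells (1.86-fold; FDR 0.000226, edgeR's quasi-likelihood test with Benjamini-Hochberg adjustment) and by 0.86 (SE 0.12) in GC B cells (1.82-fold, FDR 3.25e-05). In a bulk sample, fewer cells that express a gene and less RNA of it per cell cannot be told apart.

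KO mice showed the same direction for *Rc3h2*. KO Tfh samples held 11.7, 12.2 and 13.6 CPM, and KO non-Tfh samples 12.97, 27.5 and 34.1 CPM. The lowest KO non-Tfh sample, replicate 1, lay within the Tfh range, while the other 5 lay between 23.1 and 34.1 CPM. The difference was -1.05 in T cells (FDR 0.000119) and -0.64 in B cells (FDR 0.000416), with no overlap between KO GC B (14.6 to 19.6 CPM) and KO non-GC B samples (25.8 to 32.0 CPM). Without non-GC B KO replicate 1 the B cell difference was -0.58 and its fold dropped under 1.5.

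*Zc3h12a* encodes Regnase-1, which restrains T cell activation and cleaves *Nfkbiz*, *Icos* and *Il6* mRNAs among others (chromosome 4, 125118423-125127840, minus strand). Its highest group was WT non-GC B, where the 5 samples held 24.5, 30.0, 15.6, 17.6 and 19.5 CPM, and its lowest was WT GC B, with 7.09, 9.01 and 11.9 CPM (lowest, median, highest). All GC B samples lay below all non-GC B samples. The gene fell by 1.14 (SE 0.18) on the log2 scale in WT GC B cells (2.21-fold, FDR 9.89e-05) and by 0.92 (SE 0.17) in KO GC B cells (1.90-fold, FDR 0.000634).

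In T cells *Zc3h12a* was lower in KO than in WT Tfh samples, by a call at the edge of the threshold. WT Tfh samples held 11.8, 13.9 and 19.3 CPM, KO Tfh samples 7.30, 10.1 and 10.8 CPM, WT non-Tfh samples 7.66, 10.7 and 11.9 CPM, and KO non-Tfh samples 10.0, 13.6 and 14.8 CPM. Every KO Tfh sample lay below every WT Tfh sample, and the other T cell groups overlapped. Tfh against non-Tfh gave 0.46 (SE 0.14, FDR 0.00863) in WT and -0.45 (SE 0.13, FDR 0.00504) in KO mice, both under 1.5-fold. The 2 contrasts share no sample.

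KO Tfh cells held 1.52-fold less *Zc3h12a* than WT Tfh cells (log2 fold change -0.61, SE 0.13, FDR 0.0470), the single one of the 7 genes that changed between genotypes. With *Zc3h12d* and *Zfp36l2* it made 3 of 7 with an unadjusted p under 0.05, where 19.2% of genes had one. Of all genes tested in Tfh cells, 0.496% changed in the same comparison and 0.400% did so downward, and 1.60% of genes had groups that did not overlap. In non-Tfh cells the KO value was 0.33 higher (SE 0.13, unadjusted p = 0.0245, FDR 0.352). The difference between the 2 KO effects was -0.94 (95% interval -1.33 to -0.55, unadjusted p = 4.61e-05, FDR 0.0758) and did not pass with edgeR. There, 0.0139% of genes passed and 9.20% had an unadjusted p under 0.05. DESeq2 gave this difference an adjusted p of 0.00276, and edgeR with the replicate number within each genotype as a block an FDR of 0.0436.

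The Tfh call was lost with the replicate number as a block (-0.60, FDR 0.0586). This block joined WT and KO samples by number alone, which cannot share a mouse, so it does not test a pairing within animals. The call was also lost on leaving out WT replicate 1, 2, 3 or 5 (FDR 0.0587, 0.0984, 0.109 and 0.101) or KO replicate 1, 2, 4, 5 or 6 (FDR 0.0765, 0.0513, 0.0651, 0.0841 and 0.0842), and it held without WT replicate 4 or 6 or KO replicate 3. RNA of other cells moved with it. B cell markers summed to 157-464 CPM in WT Tfh and 159-289 CPM in KO Tfh samples, plasma cell markers to 241-605 and 203-240 CPM, and 4 of 7 plasma cell markers tested were lower in KO Tfh cells, where 0.400% of all genes were, among them *Jchain* (61.8 against 5.01 CPM) and *Mzb1* (40.0 against 2.00 CPM). With the B cell marker score as a covariate *Zc3h12a* was -0.43 (FDR 0.381). Without the 3 WT samples whose B cell marker sum exceeded every KO sample, a choice made after seeing the data, it was -0.46 (FDR 0.410), and the remaining WT samples, at 12.4, 14.7 and 11.8 CPM, still lay above all KO samples. WT Tfh samples were 5 with *Xist* above *Ddx3y* and 1 the other way, KO Tfh samples 2 and 4, and with this difference as a covariate the value was -0.64 (FDR 0.0302).

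**Figure D1:**
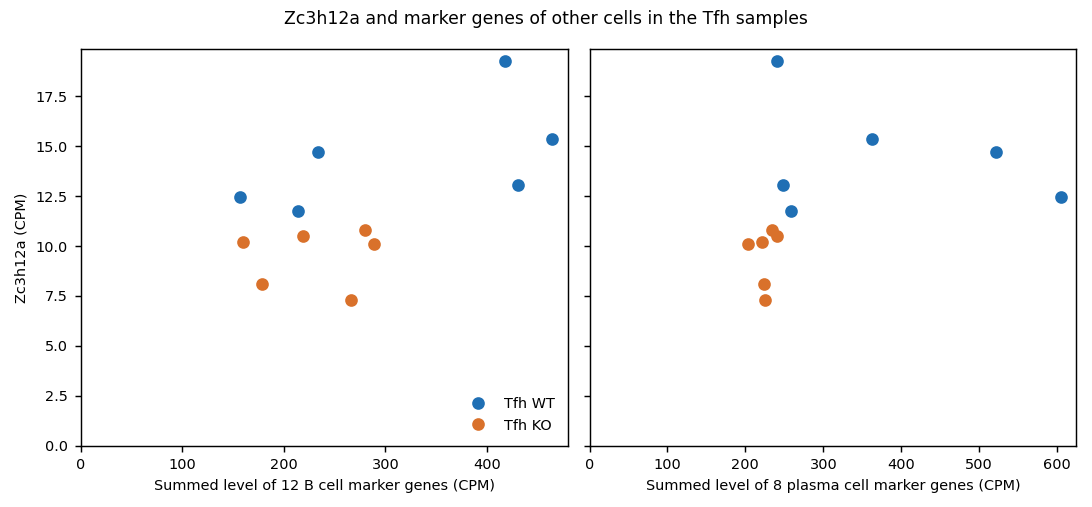
Level of *Zc3h12a* (CPM, vertical) in the 6 WT (blue) and 6 KO (orange) Tfh samples against the summed CPM of 12 B cell marker genes (left) and 8 plasma cell marker genes (right), 1 point per sample. KO samples lie at or below 10.8 CPM and WT samples at or above 11.8 CPM, and the 3 WT samples with the highest B cell marker sums lie to the right of all KO samples.

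*Zc3h12d* encodes Regnase-4, which is largely restricted to lymphoid cells and also limits T cell activation. It was the one member of the set with a positive difference at an FDR under 0.05 in both GC populations (chromosome 10, 7832470-7870396, plus strand, 73.6 Mb from *S1pr4*). WT Tfh samples held 90.9, 101 and 115 CPM and WT non-Tfh samples 50.4, 57.7 and 66.3 CPM. WT GC B samples held 87.5, 106 and 120.3 CPM, and the WT non-GC B samples 87.4, 72.0, 79.0, 62.6 and 63.4 CPM. Neither pair of groups overlapped, although the lowest GC B and the highest non-GC B sample were nearly level. The difference was 0.82 (SE 0.08, 1.77-fold, FDR 2.97e-07) in Tfh cells. In GC B cells it was 0.57 (SE 0.11, FDR 0.000446), which at 1.49-fold lay just under the 1.5-fold limit and passed it with DESeq2 and with RLE size factors (0.59 in both).

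No *Zc3h12d* difference between genotypes passed. KO Tfh samples spread from 57.8 to 107.9 CPM with a median of 81.8, around the WT range and below it, and Tfh against non-Tfh in KO mice gave 0.51 (FDR 0.00419), under 1.5-fold. With the B cell marker score as a covariate it was 0.75 (FDR 0.000276) and passed. KO against WT Tfh was -0.33 (unadjusted p = 0.0175, FDR 0.163), and the difference between the KO effects in Tfh and non-Tfh cells was -0.33 (unadjusted p = 0.0605). KO GC B samples held 95.4, 99.4 and 125.9 CPM and KO non-GC B samples 73.8, 75.2, 78.1 and 81.6 CPM, which gave 0.48 (FDR 0.00044).

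*Zfp36* encodes tristetraprolin, an early-response gene product that destabilizes *Tnf* mRNA (chromosome 7, 28376784-28380253, minus strand). WT GC B samples held 83.2, 99.4 and 115.9 CPM and the WT non-GC B samples 291, 317, 254, 253 and 268 CPM. The groups were far apart and did not overlap. *Zfp36* fell by 1.39 (SE 0.09, 2.62-fold, FDR 4.30e-08) in WT and by 1.21 (SE 0.15, 2.31-fold, FDR 2.80e-05) in KO GC B cells. Other early-response genes moved with it: 6 of 11 tested were lower in WT GC B cells, where 23.1% of all genes were, and none was higher, and their sum was 539-733 CPM there against 984-1284 CPM in non-GC B cells. Their part in the result was not tested.

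Between the T cell groups the *Zfp36* differences were smaller. WT Tfh samples held 118, 132 and 164 CPM, WT non-Tfh samples 134.5, 152 and 171 CPM, KO Tfh samples 112, 136 and 158 CPM, and KO non-Tfh samples 171.5, 187 and 235 CPM. KO non-Tfh samples lay above every other T cell sample, and the nearest was a WT non-Tfh sample at 170.6 CPM. Tfh against non-Tfh gave -0.17 (FDR 0.0885) in WT and -0.50 (FDR 0.000382) in KO mice. KO against WT non-Tfh was 0.36 (SE 0.09, unadjusted p = 0.00109, FDR 0.116), a 1.28-fold difference that did not pass, in a comparison where 1.01% of genes had groups that did not overlap.

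*Zfp36l1* was present in every group and highest in non-GC B cells (chromosome 12, 80107754-80113013, minus strand). The WT non-GC B samples held 148, 163, 141, 121 and 142 CPM, WT GC B samples 66.0, 89.7 and 104 CPM, and the 24 T cell samples between 57.8 and 94.0 CPM. The non-GC B samples stood above every other WT sample. The difference in GC B cells was -0.64 (SE 0.11, 1.55-fold, FDR 0.000238) in WT and -0.44 (SE 0.13, FDR 0.00951) in KO mice, and without GC B WT replicate 2 the WT value was -0.57, under 1.5-fold. Tfh and non-Tfh cells were not told apart (0.11 in WT, 95% interval -0.06 to 0.27). KO non-GC B samples, at 118, 125, 112 and 124 CPM, gave -0.25 against WT (unadjusted p = 0.0116, FDR 0.981).

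*Zfp36l2* showed the widest range of the set, 3.28-fold between its lowest and highest group means (chromosome 17, 84183931-84187947, minus strand). WT Tfh samples held 137, 171 and 194 CPM and WT non-Tfh samples 187, 275 and 377 CPM. WT GC B samples held 67.3, 85.6 and 118 CPM, and the WT non-GC B samples 276, 309.8, 165.5, 319 and 386 CPM. It fell by 0.73 (SE 0.13, 1.66-fold, FDR 0.000172) in WT Tfh cells and by 1.65 (SE 0.20, 3.14-fold, FDR 1.27e-05) in WT GC B cells. KO mice gave -0.73 (FDR 0.000147) and -1.40 (FDR 0.00219).

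The *Zfp36l2* values of the non-GC populations were uneven. The 4 KO non-GC B samples held 440.2, 156, 276.5 and 141.5 CPM, a coefficient of variation of 54.6%, the highest of any decay gene in any group. The interval for KO against WT in non-GC B cells accordingly ran from -0.90 to 0.51. Antisense transcripts overlap *Zfp36* (*Gm44710*), *Zfp36l1* (*Gm26669*) and *Zfp36l2* (*AC132455.1*), and since the strand setting of the counting is not given in the sources used here, reads of the partners cannot be told apart.

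**Figure D2:**
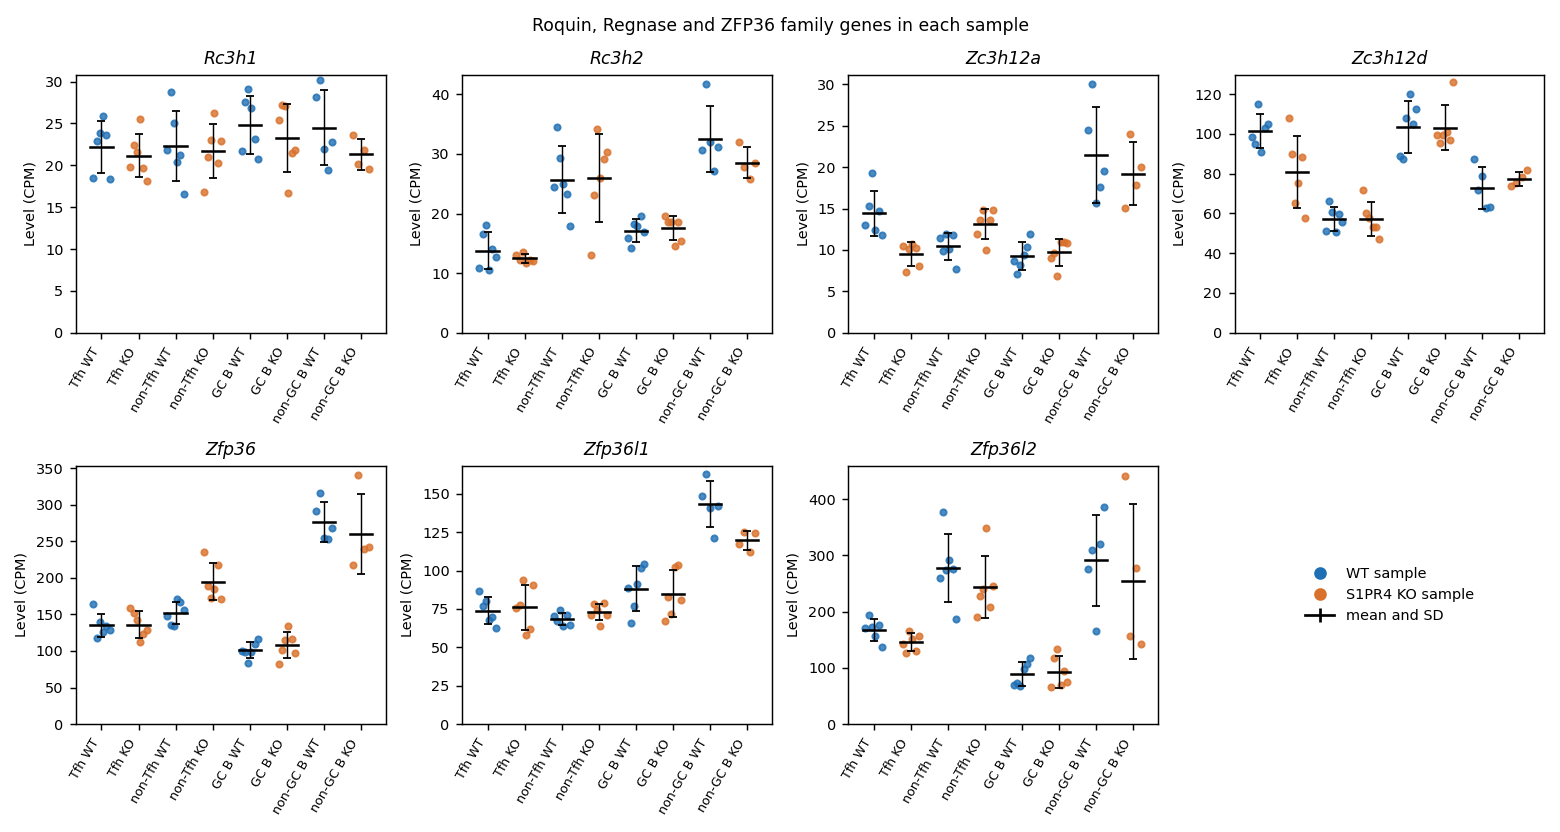
Level of each of the 7 genes (CPM, vertical axis from 0) in all 45 samples, by group, with WT samples in blue and KO samples in orange, the group mean as a bar and the SD as whiskers. *Rc3h1* is level across groups, *Zfp36*, *Zfp36l1*, *Zc3h12a* and *Rc3h2* peak in non-GC B cells, and *Zc3h12d* is higher in Tfh and GC B cells than in their counterparts.

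Counted over the set, a gene was called changed at an FDR under 0.05 and more than 1.5-fold. In WT Tfh against non-Tfh cells 3 of 7 changed, *Zc3h12d* upward and *Rc3h2* and *Zfp36l2* downward, where 43.2% of all genes tested did, 22.8% upward and 20.4% downward. Only *Zc3h12d* had groups that did not overlap there, as did 42.0% of genes. In KO Tfh against non-Tfh cells 2 of 7 changed, both downward (*Rc3h2* and *Zfp36l2*), where 43.4% of all genes did and 21.1% did so downward. *Zfp36* and *Zfp36l2* had groups that did not overlap, as did 41.7% of genes. The shares of changed genes lay at or below those of all genes, and the downward ones (2 of 7) slightly above. In WT GC B against non-GC B cells 5 of 7 changed, where 47.8% of genes changed and 23.1% changed downward. All 5 fell, namely *Rc3h2*, *Zc3h12a*, *Zfp36*, *Zfp36l1* and *Zfp36l2*, and the median log2 fold change of the set was -0.86 beside 0.0021 over all genes. In KO GC B against non-GC B cells 4 of 7 changed, all downward, where 48.2% of genes changed and 22.9% fell. B cell groups did not overlap for 6 of 7 genes in either genotype, where 43.1% of genes in WT and 45.5% in KO did not.

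**Figure D3:**
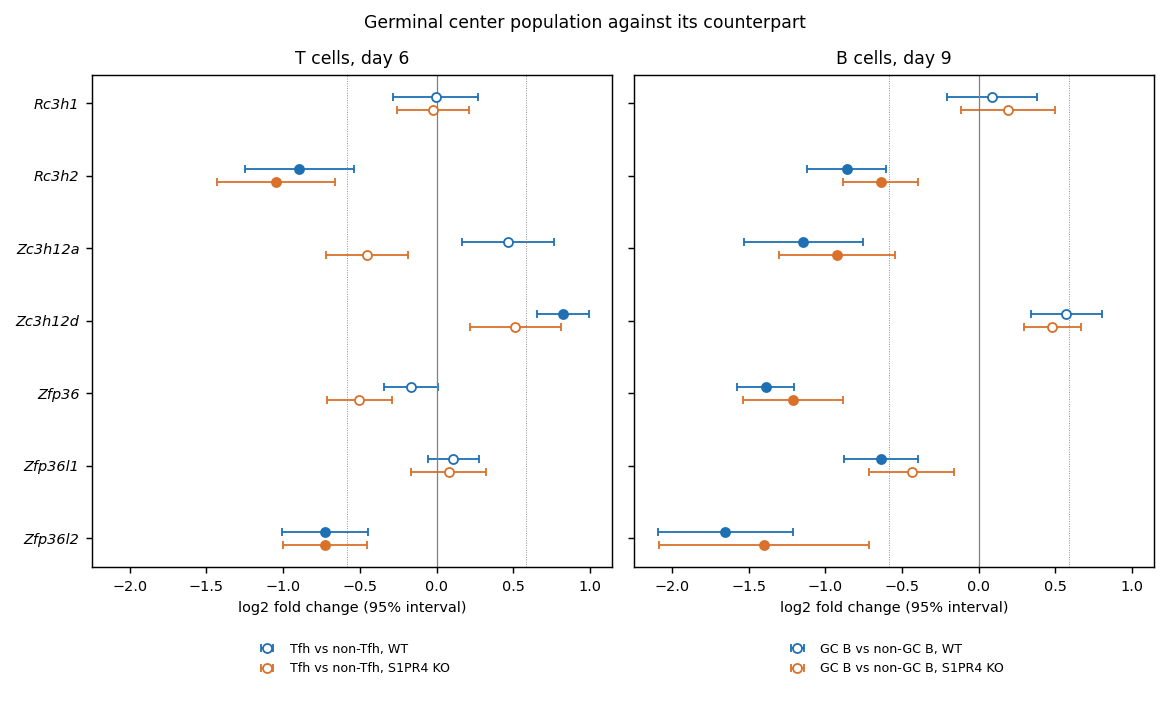
Log2 fold change with 95% intervals (horizontal) of each gene between a GC population and its counterpart, in T cells (left) and B cells (right), for WT (blue) and KO (orange) mice. Filled points passed the FDR and the 1.5-fold limit (dotted lines). *Rc3h2* and *Zfp36l2* lie to the left in all 4 contrasts and *Zc3h12d* to the right, and *Zfp36*, *Zfp36l1* and *Zc3h12a* lie further left in B cells than in T cells.

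The fall in GC B cells was tested against the change in Tfh cells within WT mice by an interaction term. It differed for 4 of 7 genes, all more negative in B cells, where 41.7% of genes differed and 21.4% were more negative. The difference was -1.67 (SE 0.24, FDR 5.62e-06) for *Zc3h12a*, -1.29 (SE 0.13, FDR 2.92e-08) for *Zfp36*, -0.99 (SE 0.26, FDR 0.00332) for *Zfp36l2* and -0.81 (SE 0.14, FDR 7.66e-05) for *Zfp36l1*. *Zc3h12d* gave -0.31 (FDR 0.0667), and this passed without non-Tfh WT replicate 2, GC B WT replicate 4, or non-GC B WT replicate 4 or 5 (FDR 0.0368, 0.0375, 0.0372 and 0.0406). For *Rc3h2* the 2 shifts differed by -0.03 (95% interval -0.48 to 0.42), and for *Rc3h1* by 0.03.

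Lineages differed outside the GC as well. Non-GC B cells exceeded non-Tfh cells in WT mice for *Zfp36l1* (1.12, 2.18-fold, FDR 1.93e-08), *Zc3h12a* (1.09, 2.13-fold, FDR 0.000101) and *Zfp36* (0.93, 1.90-fold, FDR 4.67e-07), 3 of 7 genes where 38.9% of all genes changed and 19.7% did so upward. The groups of these 3 did not overlap, as was so for 37.8% of genes. *Zfp36l2* did not pass there (0.13, 95% interval -0.29 to 0.55). GC B cells were lower than Tfh cells for *Zfp36l2* (-0.91, 1.88-fold, FDR 6.84e-05) and *Zc3h12a* (-0.63, 1.55-fold, FDR 0.00192), 2 of 7 where 44.3% changed and 24.2% did so downward. *Zfp36* and *Zfp36l2* had groups that did not overlap, as did 43.5% of genes. The *Zc3h12a* value was -0.53 without Tfh WT replicate 3 and -0.56 without GC B WT replicate 2, both under 1.5-fold. These contrasts share their WT samples with those above.

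The 8 groups were also put in order by their mean log2 CPM, gene by gene, and each of the 49 steps between neighbors was compared by a two-sided exact permutation test. Since the order was set by the same means, the steps are a description. None passed after Benjamini-Hochberg adjustment over the 49, but the smallest p that 6 against 6 samples allow (exact permutation p = 0.00216) adjusts to 0.106 when it occurs once, so a single step with complete separation could not have passed. Before adjustment, 11 of the 49 steps had a p under 0.05 and the neighbors of the others were not told apart. In 2 steps the neighbors did not overlap. One was *Zfp36* from WT to KO non-Tfh cells (0.36, exact permutation p = 0.00216), and the other *Zfp36l1* from WT GC B to KO non-GC B cells (0.46, exact permutation p = 0.00952, adjusted 0.156). The largest step was *Zfp36l2* from KO GC B to KO Tfh cells (0.70, exact permutation p = 0.00649, adjusted 0.156).

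S1PR4 deficiency gave no further call. In non-Tfh cells none of the 7 genes passed with edgeR, limma or DESeq2, 2 had an unadjusted p under 0.05 (*Zfp36* and *Zc3h12a*) where 11.3% of genes had one, and 0.114% of all genes changed. In GC B cells none passed with any of the 3 tools and none had an unadjusted p under 0.05, where 4.13% of genes had one and 0.0612% changed. No GC B gene of the set had groups that did not overlap, where 0.191% of genes did. The largest GC B value was -0.10 for *Rc3h1* (95% interval -0.39 to 0.20). In non-GC B cells none passed, 1 had an unadjusted p under 0.05 (*Zfp36l1*) where 4.55% of genes had one, and 0.0537% of genes changed. None had groups that did not overlap, where 1.56% of genes did. The KO effects in GC B and non-GC B cells were not told apart for any of the 7 genes (edgeR, 0 of 14490 genes passed and 664, or 4.58%, had an unadjusted p under 0.05, none of them one of the 7).

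**Figure D4:**
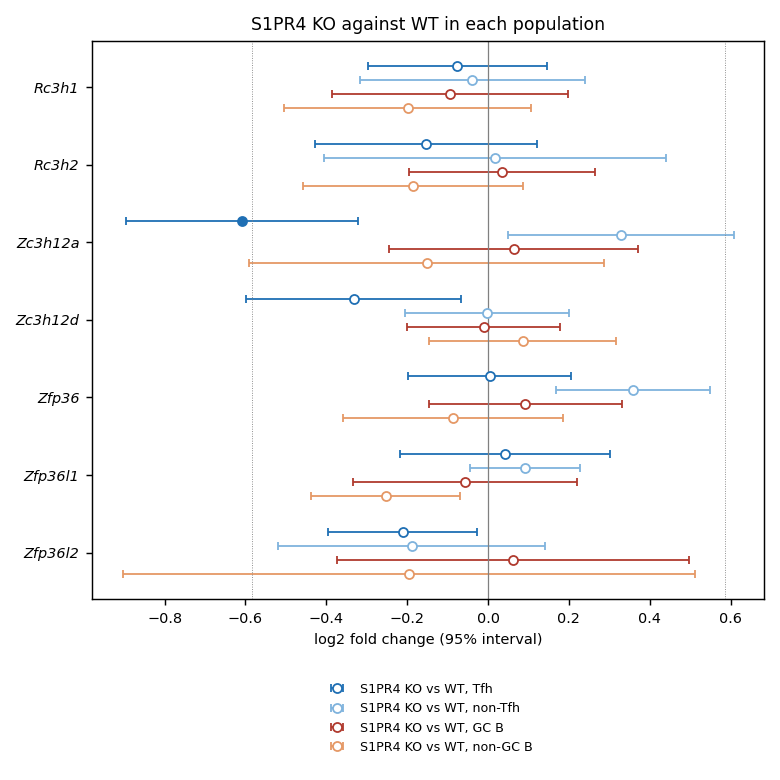
Log2 fold change of KO against WT with 95% intervals (horizontal) for the 7 genes in Tfh, non-Tfh, GC B and non-GC B cells. The filled point, *Zc3h12a* in Tfh cells at -0.61, is the one that passed the FDR and the 1.5-fold limit (dotted lines), and the *Zfp36l2* interval in non-GC B cells is the widest.

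Genes that steer these proteins or share their complexes were counted next. Of 12 regulators and cofactors, 1 rose and 2 fell in WT Tfh cells, with a median of 0.09, where 43.2% of all genes changed. *Mapkapk2*, the kinase that phosphorylates and holds back tristetraprolin, rose from 121 ± 17.1 to 216 ± 26.7 CPM (0.84, FDR 3.39e-06). *Nufip2*, a Roquin cofactor, fell by 0.59 (FDR 0.000227) and *Zc3h12b* by 1.09 (FDR 0.0113), the last at 0.682 CPM. In WT GC B cells 3 of 11 tested fell and none rose, with a median of -0.28, where 47.8% of all genes changed and 23.1% fell. *Malt1*, the protease that cleaves Roquin and Regnase-1, fell by 1.20 (109 against 263 CPM, FDR 1.01e-06), *Arid5a*, which protects hairpin mRNAs from Regnase-1, by 1.49 (87.6 against 256 CPM, FDR 7.17e-05), and *Btrc*, an adaptor for Regnase-1 degradation, by 0.74 (FDR 0.000290).

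Of 21 deadenylation and decapping genes, 1 rose and 1 fell in WT Tfh cells, where 43.2% of all genes changed, and 13 more passed the FDR at under 1.5-fold. In WT GC B cells 3 rose and 2 fell, where 47.8% of all genes changed, and 10 more passed the FDR at under 1.5-fold. *Dcp2*, the decapping enzyme, rose in both (0.90 and 0.85), and *Dcp1b*, a decapping activator, fell in both (-0.81 and -0.94). *Cnot6* (1.01) and *Cnot9* (1.11), 2 subunits of CCR4-NOT, rose in GC B cells, where *Xrn1*, the 5' to 3' exonuclease, fell by 0.76. Of 8 other RNA-binding proteins, 2 rose and none fell in WT Tfh cells, with a median of -0.03, where 22.8% of all genes rose. Another 6 passed the FDR at under 1.5-fold. In WT GC B cells 3 rose and none fell, with a median of 0.29, where 47.8% of all genes changed, and 3 more passed the FDR at under 1.5-fold. *Elavl1* (HuR, which stabilizes AU-rich mRNAs) and *Khsrp* rose in both WT contrasts (0.66 and 0.81, and 0.85 and 1.04), and *Hnrnpd* rose in GC B cells (0.94).

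Of 12 known targets of Roquin and Regnase tested, 8 rose and none fell in WT Tfh cells, with a median of 1.22, where 22.8% of all genes rose and 20.4% fell. *Icos*, the costimulatory receptor of Tfh cells, stood at 741 ± 95.5 against 144 ± 37.8 CPM (2.36, FDR 5.12e-09), *Irf4* at 44.8 against 9.39 CPM (2.26, FDR 3.69e-07) and *Tnf* at 19.4 against 9.27 CPM (1.07, FDR 2.18e-06). *Icos* is also a known marker of Tfh cells, although it was not part of the sort gate. B cell markers, 11 of 12 higher in Tfh than non-Tfh samples where 22.8% of all genes were, moved with *Irf4* and *Irf8*, and their part in the result was not tested. In WT GC B cells 3 of 10 targets tested rose and 4 fell, with a median of -0.12, where 47.8% of all genes changed and 23.1% fell. *Nfkbid* (30.7 against 90.7 CPM, -1.50), *Nfkbiz* (10.7 against 28.4 CPM, -1.34) and *Rel* (57.6 against 141 CPM, -1.23), which belong to the NF-kB system, fell. *Tfrc* (1.19), *Tnf* (0.80) and *Ctla4* (3.49, at 2.505 against 0.227 CPM) rose.

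Targets of the ZFP36 family split in both contrasts. Of 17 tested in WT Tfh cells 6 rose and 5 fell, with a median of 0.36, where 22.8% of all genes rose and 20.4% fell. *Ccne2*, a cyclin of the G1/S transition, rose from 3.75 to 28.3 CPM (2.92) and *Irf8* from 18.8 to 78.5 CPM (2.06), while *Bcl2* fell from 194 to 53.5 CPM (-1.86), *Klf2* from 579 to 177 CPM (-1.71) and *Pim3* from 47.3 to 27.9 CPM (-0.76). Of 13 tested in WT GC B cells 5 rose and 4 fell, with a median of -0.09, where 47.8% of all genes changed and 23.1% fell. *Ccne2* rose from 2.21 to 86.5 CPM (5.35), *Ccnd3* from 167 to 632 CPM (1.99) and *Pim1* from 3.48 to 16.5 CPM (2.31). *Klf2* (-2.45), *Pim3* (-1.35) and *Birc3* (-1.25) fell. Cytokine targets such as *Il6* and *Csf2* were too low to be tested in either contrast.

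**Figure D5:**
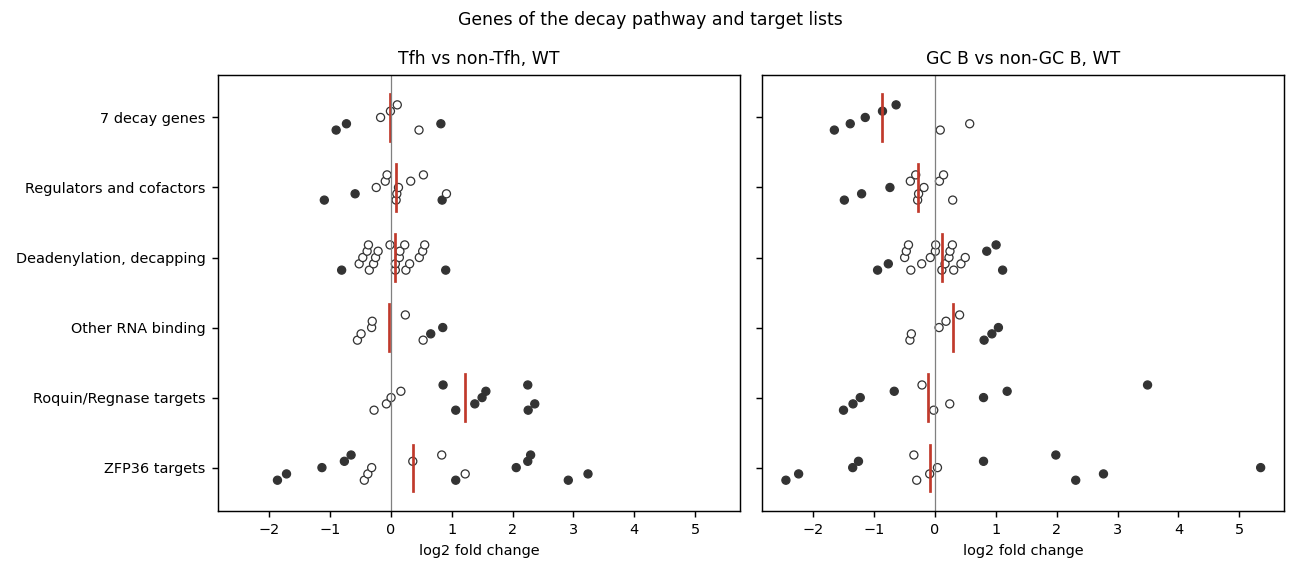
Log2 fold change (horizontal) of every tested gene of 6 lists in WT Tfh against non-Tfh cells (left) and WT GC B against non-GC B cells (right). Each point is a gene, filled where it changed, and the red bar is the list median, which is -0.86 for the 7 decay genes in GC B cells and 1.22 for the Roquin and Regnase targets in Tfh cells.

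Between genotypes, the pathway and target lists held 1 changed gene, in non-Tfh cells, where 0.114% of all genes changed. *Nfkbid*, which encodes the atypical inhibitor IkBNS and is a shared Roquin and Regnase-1 target, was higher in KO than WT non-Tfh cells (95.6 ± 11.5 against 62.3 ± 9.91 CPM, n = 6 each; log2 fold change 0.62, SE 0.10, FDR 0.0160). In Tfh cells its value was 0.21 (FDR 0.319). *Nfkbiz*, singled out after its values were seen, encodes IkBζ and is a classical Regnase-1 target. It held 48.5 ± 2.48 CPM in KO and 32.7 ± 5.20 CPM in WT non-Tfh cells (0.57, FDR 0.0160, under 1.5-fold), and 44.0 ± 4.47 CPM in KO and 59.2 ± 13.6 CPM in WT Tfh cells (-0.44, unadjusted p = 0.00567, FDR 0.0989). Its KO effects in Tfh and non-Tfh cells differed by -1.01 (95% interval -1.37 to -0.64, FDR 0.0453), in a test that 0.0139% of all genes passed. The means of *Zc3h12a* in these groups were 14.4 CPM in WT Tfh, 13.1 in KO non-Tfh, 10.5 in WT non-Tfh and 9.50 in KO Tfh cells. B cell markers summed to 59.0-71.9 CPM in KO and 63.5-104 CPM in WT non-Tfh samples. WT non-Tfh samples were 5 with *Xist* above *Ddx3y* and 1 the other way, KO non-Tfh samples 2 and 4. The part of B cell RNA and of sex in these results was not tested.

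In Tfh, GC B and non-GC B cells no gene of the 5 pathway and target lists changed between KO and WT. In Tfh cells 1 of 21 deadenylation and decapping genes and 2 of 18 ZFP36 targets passed the FDR at under 1.5-fold, and by unadjusted p under 0.05 there were 5 and 7, where 19.2% of all genes had one. In GC B cells 1 of 14 ZFP36 targets had an unadjusted p under 0.05, where 4.13% of all genes did, and in non-GC B cells 1 of 21 deadenylation and decapping genes and 2 of 10 Roquin and Regnase targets did, where 4.55% of all genes did.

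The genes whose pattern over the 45 samples came nearest to each member were ranked by the root mean square difference of log2 CPM, each centered on its own mean. For *Rc3h1* they were *Zfp664* (0.16), *Cntrl* (0.18) and *Ythdf1* (0.18). For *Rc3h2* they were *Zfp592* (0.21), *Fnbp4* (0.21) and *Smg1* (0.21). *Zc3h12a* was nearest to *Bahd1* (0.26), *Relb* (0.29) and *Med12* (0.30). *Zc3h12d* was nearest to *Hcls1* (0.20), *Ehmt2* (0.21) and *Gnb2* (0.22). *Zfp36* was nearest to *Mafk* (0.24), *Rab5b* (0.25) and *Dnajb5* (0.25). *Zfp36l1* was nearest to *Dennd4b* (0.20), *Camkk2* (0.21) and *Tob2* (0.21), and *Zfp36l2* to *Zfp12* (0.33), *Maml2* (0.34) and *Slc5a6* (0.34). The median gene lay between 0.77 and 1.01 from the members, and the members themselves varied by 0.22 (*Rc3h1*) to 0.73 (*Zfp36l2*) about their own means. No other member of the set was among the 3 nearest of any.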

How the data were processed

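RNA of sorted cells was captured with oligo-dT beads and sequenced as paired-end libraries made with an Illumina stranded kit. The authors deposited RSEM expected counts per gene for 45 samples, with build mm10, and the submitters' processing notes name STAR 2.5.3, RSEM 1.3.0, cutadapt 2.10, Picard and DESeq2. The strand setting of the counting is not given in the sources used here.

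Expected counts were rounded (8.83% of the values were not whole). Genes passing filterByExpr were fitted with TMM scaling in edgeR 4.0.16 (R 4.3.3), separately for each comparison on its own groups, and tested by the quasi-likelihood test with Benjamini-Hochberg adjustment over all genes tested (FDR). The call needed both an FDR below 0.05 and more than 1.5-fold, except for interactions, which were called by the FDR alone. Log2 CPM used a prior count of 2. DESeq2 1.42.0, limma 3.58.1, other scalings, no filter, all groups in one fit, a replicate block, covariates for sex and for B cell markers, and leaving out each sample were alternatives. The block was the replicate number in a comparison of 2 groups, and genotype with replicate number in an interaction. Where the groups differed in genotype or day, samples joined by number cannot share a mouse. The scripts were tested on simulated data. Libraries of 26299429 to 45548215 counts gave each decay gene at least 188 counts, so that the spread between samples, more than counting error, limits precision.

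The 7 genes and all lists were chosen with earlier results of these data known. All 7 are given in every comparison. From each list, up to 3 changed genes a direction with the lowest FDR are named in the WT population contrasts, and every changed one between genotypes. The 3 genes nearest in pattern to each member, *S1pr4* and the sort markers are also named. Coordinates, transcript lengths and 3' UTRs are those of GENCODE M21 on mm10, while the study's methods name a later GENCODE release for the alignment, so levels per kb and UTR matches rest on gene models that may differ from those counted.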

Additional observations from a re-analysis of the deposited data

Results flagged for a closer look

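Of 56 groups of samples examined for a value far from the others, 1 was found, where chance gives about 1 in 20. It was the *Zc3h12d* level of KO GC B replicate 6, at 125.9 CPM, above the other 5 samples of its group. The change between a GC population and its counterpart in WT mice differed between B cells and T cells for 4 genes by a test of the difference itself (edgeR's quasi-likelihood test). The difference, B minus T, was -1.67 for *Zc3h12a*, -1.29 for *Zfp36*, -0.81 for *Zfp36l1* and -0.99 for *Zfp36l2* on the log2 scale. Lineage and day of collection cannot be told apart in these differences.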

How the results depend on the processing

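The call of *Zc3h12a* between KO and WT Tfh cells was the least stable: the count of changed genes there was 0 with the replicate block (log2 fold change -0.60, FDR 0.0586), with the B cell marker covariate, and without the 3 WT Tfh samples high in B cell markers (a choice made after seeing the data), and 0 to 1 on leaving out a sample. The block in that comparison joined WT and KO samples by number alone. The *Zc3h12a* interaction between Tfh and non-Tfh cells was called, as 1 gene, by DESeq2 (adjusted p = 0.00276) and with the replicate block within genotype (FDR 0.0436), and by no other alternative (0.0506 to 0.391). Same-numbered samples deviated together only in part (r from 0.045 to 0.205 in WT and 0.087 to 0.163 in KO T cells, -0.0011 to 0.103 in WT and -0.045 to 0.018 in KO B cells), although a sample correlated best with its own number in 4 of 6, 6 of 6, 4 of 5 and 0 of 4 pairs of these. Differently numbered samples averaged -0.020 in WT and -0.023 in KO T cells, and -0.012 in WT and 0.0034 in KO B cells. Since not every correlation of same-numbered samples exceeded 0.1, the numbers were not taken as pairs. That limit cannot show that the samples were unpaired. The block moved no other count. On leaving out a sample the counts were 1 to 2 for GC B against Tfh, 3 to 4 and 5 to 6 for GC B against non-GC B in KO and WT, 2 to 3 for KO Tfh against non-Tfh, 4 to 5 for the B minus T shift, and the main value elsewhere.

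No called value changed sign. These uncalled ones did. *Rc3h1* in WT Tfh against non-Tfh was 0.012 with DESeq2 and with RLE size factors, 0.019 with limma, 0.0011 with no filter, 0.0030 with the block, 0.0037 with the sex covariate, 0.18 with the B cell covariate and 0.033 without the 3 WT samples. *Zfp36l1* there was -0.049 with the B cell covariate and -0.031 without the 3 WT samples. With the B cell covariate *Zfp36l1* was -0.059 in KO Tfh against non-Tfh, *Rc3h2* was 0.020 and -0.064 for KO against WT in Tfh and non-Tfh cells, and the Tfh minus non-Tfh interactions of *Zfp36l1* and *Zfp36l2* were 0.015 and 0.022 (0.11 and 0.087 without the 3 WT samples). With total counts *Rc3h1* was -0.011 in WT GC B against non-GC B, *Zfp36* -0.00031 in KO against WT Tfh, *Zfp36l2* -0.0062 in non-GC B against non-Tfh, and *Zc3h12d* -0.023 in GC B against Tfh. With the sex covariate *Zfp36* and *Zfp36l1* were -0.11 and -0.16 in KO against WT Tfh. For KO against WT non-Tfh *Rc3h2* was -0.0085 with limma and -0.016 with the block. With the block *Zfp36l2* was -0.00014 in non-GC B against non-Tfh and *Rc3h2* 0.033 in the B minus T shift. The cause was not tested.

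On leaving out a sample, *Rc3h1* ran from -0.087 to 0.080 and -0.090 to 0.030 in WT and KO Tfh against non-Tfh, -0.11 to 0.045 for KO against WT non-Tfh, -0.059 to 0.11 in the B minus T shift and -0.12 to 0.042 in the Tfh minus non-Tfh interaction. *Rc3h2* ran from -0.078 to 0.16 for KO against WT non-Tfh, -0.0077 to 0.081 for KO against WT GC B and -0.13 to 0.077 in the B minus T shift. *Zc3h12d* ran from -0.075 to 0.047 for KO against WT non-Tfh, -0.073 to 0.025 for KO against WT GC B and -0.0017 to 0.087 in GC B against Tfh. *Zfp36* ran from -0.046 to 0.068 for KO against WT Tfh. *Zfp36l1* ran from -0.029 to 0.11 in the same contrast and -0.12 to 0.027 in the interaction. *Zfp36l2* ran from -0.080 to 0.16 for KO against WT GC B, -0.13 to 0.11 in the interaction and -0.00076 to 0.27 in non-GC B against non-Tfh.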
